A study of Mus musculus with 6 samples.

Results

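The collagen genes are the rows of the deposited expression table whose symbol has the form Col, a number, the letter a and a number, and 34 of the 11578 genes in the table have such a symbol. They comprise 9 chains of the fibrillar collagens, 6 chains of type IV collagen and 19 other chains, among them 5 of type VI. Membership rests on the symbol alone, but the family and its comparison of mutant with wild type kidneys were selected from results of the same libraries that were already known. The mutant and wild type values of these genes are therefore given as a description, and no test on them is used as support. Of 45 mouse collagen symbols listed from the nomenclature, 11 are not analysed here (Col5a3, Col24a1, Col6a5, Col9a3, Col19a1, Col20a1, Col21a1, Col22a1, Col10a1, Col17a1 and Col28a1).

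Collagens are extracellular matrix proteins in which chains with glycine at every turn of a repeated unit wind into a rope-like trimer, so that genes for partner chains are used together. Fibrillar collagens are cleaved after secretion and cross-linked into the fibrils of the interstitium. Type IV chains form the sheet-like network of basement membranes, which in the kidney underlies every tubule and the glomerular filter. Type VI collagen forms beaded filaments at the boundary between cells and interstitium, and the fibril-associated collagens (FACITs) sit on the surface of fibrils.

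Polyadenylated RNA was sequenced from 3 kidneys of mutant mouse embryos and 3 kidneys of wild type embryos, taken near embryonic day 17. The mutants are SRM deletion mutants, in which the transcription factor Sall1 lacks the repression motif through which it recruits NuRD, a chromatin remodelling and deacetylase complex. The wild types are labelled as Sall1 wild type, and no strain is given. Each library is named by its genotype and number (mutants 328, 336 and 342, and wild types 330, 331 and 337). The labels do not say whether the kidneys came from separate embryos, so no error given here is known to measure spread between embryos. Each SD is the spread of the samples within a group. Each SE is that of limma, which moderates a gene's variance with the variances of all genes in the table.

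Values are the authors' scaled signal per gene, which totalled between 555147910 and 559251769 in every library. Sall1 itself had 146230, 161553 and 130258 in mutants 328, 336 and 342, against 176175, 152644 and 171578 in wild types 330, 331 and 337. This gene-level sum does not tell if the deleted motif is transcribed. Kidney markers were in the table for all 8 podocyte genes, all 8 ureteric and collecting duct genes, and 10 of 11 stromal genes. None of 6 adrenal or 8 skeletal muscle markers was in it. In mutant 336 and wild types 331 and 337 the values lay on a regular grid. The strength of this spacing was between 0.561 and 0.866, where 0 is none. It was at most 0.139 in mutants 328 and 342 and wild type 330. The step of the grid was not estimated. Libraries with the strong spacing were taken as having lower estimated depth, an inference from the spacing alone. They hold 1 of the mutants, and those of higher depth hold 1 of the wild types.

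Most collagen genes were higher in mutant than in wild type kidneys. The log2 difference, mutant minus wild type, was above 0 for 28 of the 34 genes and below 0 for 6, against 52.4% above 0 among all genes. Its median was 0.37 over the collagens and 0.02 over all 11578 genes. The 34 genes together held 1.52%, 1.38% and 1.41% of the signal in mutants 328, 336 and 342, against 1.27%, 1.24% and 1.18% in wild types 330, 331 and 337, so all 3 mutants lay above all 3 wild types. Most of this signal is that of Col4a1, Col3a1, Col4a2, Col1a2, Col1a1 and Col18a1, for each of which the groups overlapped. No such share was computed for other sets of genes. In whole kidneys, more cells of a type and more RNA per cell cannot be told apart.

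For 12 collagens all 3 mutant values lay above all 3 wild type values, and for Col9a1 all 3 lay below. Among all genes 11.1% were apart with mutants higher and 8.42% apart with mutants lower. By limma over all genes 0 of the 34 had a Benjamini-Hochberg adjusted p under 0.05 (the lowest was 0.203, for Col9a1), where 0.285% of all genes did. At an unadjusted p under 0.05 there were 12 higher and 1 lower, against 10.5% and 8.51% of all genes. These counts come from the comparison through which the family was chosen, and nothing is read from them. Without wild type 330, 17 collagens had a limma adjusted p under 0.05, 15 higher and 2 lower, and so did 26.7% of all genes. The wild types then left, 331 and 337, are both of lower estimated depth, and mutants 328 and 342 are of higher. Genotype and depth class cannot be fully told apart in that fit. With wild type 330 left out, 28 of the 34 log2 differences were again above 0.

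**Figure D1:**
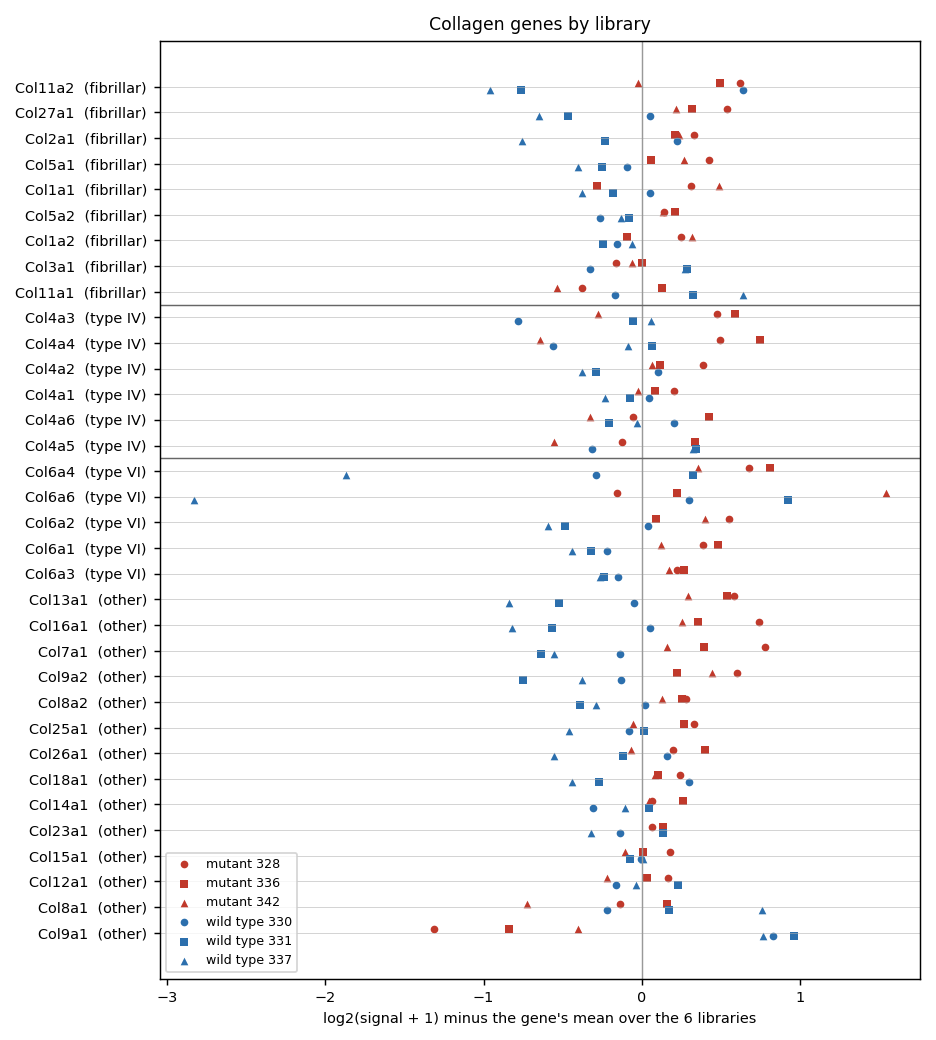
Each row is a collagen gene and each point a library, placed by log2(signal + 1) minus the gene's mean over the 6 libraries, with mutants in red above wild types in blue. The red points lie to the right for 12 genes, to the left for Col9a1, and are mixed with the blue for the others.

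The type IV chains of the basement membrane were led by Col4a1 and Col4a2. Per kilobase of transcript Col4a1 had the highest mean signal of all 34 collagens, 237390 per kb over the 6 libraries, and Col4a2 was 4th with 128754 per kb. These chains form the ubiquitous network of basement membranes. Col4a5, Col4a4, Col4a3 and Col4a6, with 15000, 3156, 2660 and 1625 per kb, were far less abundant, and the alpha 3, 4 and 5 chains form the network of the mature glomerular filter.

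Col4a1 had a signal of 1799806, 1658557 and 1537720 in mutants 328, 336 and 342, against 1610224, 1483197 and 1332489 in wild types 330, 331 and 337. Col4a2 had 1066495, 886035 and 855353 in the mutants and 877072, 669723 and 628112 in the wild types. Wild type 330 was the highest wild type for both chains and lay within the mutant range, so the groups overlapped. The log2 differences were 0.18 (SE 0.16) for Col4a1 and 0.38 (SE 0.18) for Col4a2.

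Col4a3 and Col4a4, chains of the glomerular network, overlapped between genotypes. Col4a3 had 30139, 32529 and 17875 in mutants 328, 336 and 342, against 12603, 20799 and 22563 in wild types 330, 331 and 337 (log2 difference 0.52, SE 0.28). Col4a4 had 42168, 50371 and 19152 in the mutants and 20261, 31258 and 28181 in the wild types (0.40, SE 0.32). In both, mutants 328 and 336 were above every wild type and mutant 342 was below at least 2 of them. The 8 podocyte markers, which mark the cells that secrete these chains, summed to 950646, 992199 and 815508 in the mutants and 854190, 878585 and 772264 in the wild types, and their part in the result was not tested.

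Col4a5 had 87119, 120185 and 64713 in mutants 328, 336 and 342, against 76545, 120638 and 119041 in wild types 330, 331 and 337, a log2 difference of -0.23 (SE 0.25). Col4a6, its neighbour on the X chromosome, had 10245, 14277 and 8484 in the mutants and 12230, 9195 and 10387 in the wild types (0.03, SE 0.26). Neither separated the genotypes. Over the 6 type IV chains 5 log2 differences were above 0, with a median of 0.28, and no chain had groups apart. As log2 deviation from each gene's mean over the 6 libraries, the median of the 6 chains was 0.29, 0.38 and -0.30 in mutants 328, 336 and 342, against -0.14, -0.07 and -0.06 in wild types 330, 331 and 337. Mutant 342 thus stood below every wild type and the other mutants above.

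The type IV genes lie in head-to-head pairs, and 2 of the promoters are shown because both partners start inside them. In GENCODE the gene bodies of Col4a1 (chromosome 8, 11198423 to 11312826, minus strand) and Col4a2 (11312805 to 11449287, plus strand) overlap by 22 bases. Col4a4 (chromosome 1, 82448423 to 82586849, minus strand) and Col4a3 (82586921 to 82722059, plus strand) are 71 bases apart. Col4a6 and Col4a5 are 1308 bases apart. The windows are 300 bases long, end 50 bases after the RefSeq start of the minus strand gene on GRCm38.p6 and are written 5′ to 3′ on that strand, and capitals mark the motifs found.
Col4a1 and Col4a2, chr8:11312777-11313076, minus strand: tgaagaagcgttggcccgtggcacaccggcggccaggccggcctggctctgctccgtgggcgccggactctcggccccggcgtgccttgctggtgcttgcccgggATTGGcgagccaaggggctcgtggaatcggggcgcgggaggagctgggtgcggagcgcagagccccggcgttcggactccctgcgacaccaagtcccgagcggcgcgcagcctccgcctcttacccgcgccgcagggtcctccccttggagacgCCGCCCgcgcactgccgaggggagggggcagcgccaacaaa
Col4a4 and Col4a3, chr1:82586800-82587099, minus strand: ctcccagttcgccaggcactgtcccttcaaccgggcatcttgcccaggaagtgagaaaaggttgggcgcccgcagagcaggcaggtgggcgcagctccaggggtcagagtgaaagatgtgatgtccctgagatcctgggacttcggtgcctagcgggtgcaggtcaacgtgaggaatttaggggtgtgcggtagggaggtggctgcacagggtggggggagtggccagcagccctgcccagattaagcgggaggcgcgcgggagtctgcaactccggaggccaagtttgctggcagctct

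The motifs searched, on both strands, were GGGCGG (the GC box), CCAAT and TATAAA, and no matches shown here overlap. The window of Col4a1 and Col4a2 was 74.0% G and C and held 1 GC box and 1 CCAAT, both on the opposite strand, and that of Col4a4 and Col4a3 was 63.3% G and C and held none of them. Of all 32851 RefSeq windows of this length, 35.7% held a GC box, 37.4% CCAAT and 13.6% TATAAA. These matches describe the letters of the windows only.

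The fibrillar collagens were led by the chains of types III and I. Col3a1, the only chain of type III collagen, had 222044 signal per kb, 2nd of the 34, and Col1a2 and Col1a1, the chains of type I collagen, were 3rd and 5th with 149322 and 110797 per kb. Of the 9 fibrillar genes 7 had a log2 difference above 0 and 2 below, with a median of 0.34.

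Col1a1 had 794642, 526341 and 900049 in mutants 328, 336 and 342, against 663055, 565694 and 492389 in wild types 330, 331 and 337 (log2 difference 0.34, SE 0.21). Col1a2 had 937287, 740064 and 985516 in the mutants and 706891, 665681 and 756021 in the wild types (0.31, SE 0.17). Mutant 336 was the lowest mutant for both chains and lay within the wild type range. Col3a1 went the other way, with 1090692, 1222483 and 1167253 in the mutants against 973342, 1485371 and 1473569 in the wild types (-0.15, SE 0.19). Wild types 331 and 337 lay above every mutant for Col3a1 and wild type 330 below them.

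Type V chains, which are built into type I fibrils and limit their width, had groups that did not overlap. Col5a1 had 274890, 213563 and 246309 in mutants 328, 336 and 342, against 192549, 172568 and 155145 in wild types 330, 331 and 337 (log2 difference 0.50, SE 0.17). Col5a2 had 149005, 155961 and 148137 in the mutants and 112202, 127580 and 123177 in the wild types (0.32, SE 0.15). The mutant mean of Col5a2 was 151034 ± 4289 and the wild type mean 120986 ± 7920 (SD, n = 3 each). Col27a1, a fibrillar chain best known from cartilage, was apart as well, with 35644, 30549 and 28519 in the mutants and 25376, 17735 and 15646 in the wild types (0.71, SE 0.22).

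The fibrillar chains of types II and XI, which are also typical of cartilage, overlapped between genotypes. Col2a1 had 53789, 49332 and 50327 in mutants 328, 336 and 342, against 49808, 36353 and 25314 in wild types 330, 331 and 337 (log2 difference 0.51, SE 0.23). Col11a2 had 9282, 8489 and 5941 in the mutants and 9400, 3553 and 3110 in the wild types (0.72, SE 0.42). Wild type 330 stood within the mutant range for Col2a1 and above it for Col11a2. Col11a1, the partner of Col11a2, had 11662, 16603 and 10465 in the mutants and 13474, 18944 and 23627 in the wild types (-0.52, SE 0.26). Of 10 cartilage and bone markers only Sox9 and Hapln1 were in the table, and Acan, Matn1 and Comp, which define cartilage, were not. Those 2 genes summed to 33710, 36895 and 28334 in the mutants and 26556, 43250 and 24989 in the wild types.

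All 5 type VI chains had a log2 difference above 0, with a median of 0.69, and 4 of them had groups apart with mutants higher, as did 11.1% of all genes. Col6a1 had 289310, 308736 and 239940 in mutants 328, 336 and 342, against 189335, 176652 and 163066 in wild types 330, 331 and 337 (log2 difference 0.66, SE 0.16). Col6a2 had 276255, 200820 and 248144 in the mutants and 193417, 134731 and 124846 in the wild types (0.69, SE 0.20). Col6a3, the largest of the 3 classical type VI chains, had 185048, 190969 and 178722 in the mutants and 143207, 134606 and 132298 in the wild types (0.44, SE 0.15). The lowest mutant exceeded the highest wild type for each of the classical chains. Means of Col6a3 were 184913 ± 6125 in mutants and 136704 ± 5749 in wild types (SD, n = 3 each).

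Col6a4 and Col6a6, later-described chains that can take the place of the alpha 3 chain, were much less abundant, at 1986 and 522 signal per kb against 55571 for Col6a1. Col6a4 had 20136, 22112 and 16093 in mutants 328, 336 and 342, against 10281, 15742 and 3452 in wild types 330, 331 and 337 (log2 difference 1.23, SE 0.44). Col6a6 ranged from 2997 to 9717 in the mutants and from 469 to 6336 in the wild types (1.07, SE 0.83). Wild type 337 was the lowest library for both and the mutants of Col6a6 overlapped the wild types. Without that library the log2 difference was 0.60 for Col6a4 and -0.08 for Col6a6, which turned direction. Col6a2 and Col6a1 lie on the minus strand of chromosome 10, 85161 bases apart.

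Col9a1 was the collagen with the largest difference and the only member lower in every mutant. It encodes a chain of type IX collagen, a FACIT best known from cartilage. It had 1227, 1705 and 2300 in mutants 328, 336 and 342, against 5413, 5935 and 5170 in wild types 330, 331 and 337, with means of 1744 ± 538 and 5506 ± 391 (SD, n = 3 each) and a log2 difference of -1.70 (SE 0.41). The highest mutant was well below the lowest wild type. The difference was -2.85 with quantile normalization and -1.26 with a pseudocount of 1000. At 945 signal per kb it was 32nd of the 34 collagens in abundance. Without the trend of variance on level, Col9a1 alone of the collagens had a limma adjusted p under 0.05 (0.0346), as did 0.19% of all genes.

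Its partner chain went the opposite way. Col9a2 had 9752, 7501 and 8727 in mutants 328, 336 and 342, against 5866, 3819 and 4951 in wild types 330, 331 and 337 (log2 difference 0.84, SE 0.29), and the groups were apart. The ratio of Col9a1 to Col9a2 signal per kb was 0.0960, 0.173 and 0.201 in the mutants and 0.704, 1.19 and 0.796 in the wild types. The transcripts differ in GC content, 52.2% for Col9a1 and 62.7% for Col9a2. RefSeq gives Col9a1 starts at 24177610 and 24195203 on the plus strand of chromosome 1, and both promoters are shown because a value per gene does not tell which start was used.
Col9a1 upstream start, chr1:24177360-24177659, plus strand: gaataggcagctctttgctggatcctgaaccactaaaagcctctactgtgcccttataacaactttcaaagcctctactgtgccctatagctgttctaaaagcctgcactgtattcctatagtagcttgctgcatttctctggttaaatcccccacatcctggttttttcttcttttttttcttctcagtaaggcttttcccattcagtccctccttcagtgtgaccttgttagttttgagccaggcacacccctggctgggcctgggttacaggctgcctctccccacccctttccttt
Col9a1 downstream start, chr1:24194953-24195252, plus strand: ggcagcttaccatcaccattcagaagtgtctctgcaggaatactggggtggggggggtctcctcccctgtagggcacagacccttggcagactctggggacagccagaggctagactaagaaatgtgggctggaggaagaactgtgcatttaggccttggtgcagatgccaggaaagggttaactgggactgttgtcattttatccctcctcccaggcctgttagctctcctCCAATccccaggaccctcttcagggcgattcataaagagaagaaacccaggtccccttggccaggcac

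These windows of 300 bases on GRCm38.p6 end 50 bases after each start and run 5′ to 3′. The upstream window was 47.3% G and C and held none of the 3 motifs. The downstream window was 55.7% G and C and held 1 CCAAT, shown in capitals.

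The remaining FACITs covered a wide range. Col16a1 had 102004, 78147 and 72674 in mutants 328, 336 and 342, against 63191, 41165 and 34535 in wild types 330, 331 and 337 (log2 difference 0.90, SE 0.23), and its groups were apart. Col14a1, which binds fibrils in interstitial tissue, averaged 124437 ± 10442 in mutants and 105380 ± 12828 in wild types (0.24, SE 0.16). Col12a1, its close relative, averaged 136121 ± 18066 in mutants and 137731 ± 19552 in wild types (SD, n = 3 each; -0.02, SE 0.17). The groups overlapped for these last genes.

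Another 3 members had mutant values above all wild type values. Col13a1, a transmembrane collagen of cell junctions, had 13085, 12673 and 10681 in mutants 328, 336 and 342, against 8412, 6071 and 4882 in wild types 330, 331 and 337 (log2 difference 0.94, SE 0.27). Col7a1, which forms anchoring fibrils in skin, had 12353, 9426 and 8025 in the mutants and 6551, 4629 and 4906 in the wild types (0.88, SE 0.29). Both separated the genotypes at a low level of signal. Col8a2, a short chain network collagen, had 32638, 32119 and 29428 in the mutants and 27221, 20507 and 22030 in the wild types (0.44, SE 0.19). Its relative Col8a1 had 5996, 7374 and 4007 in the mutants and 5665, 7455 and 11208 in the wild types (-0.47, SE 0.35), with groups that overlapped.

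The other 5 members overlapped between genotypes. Col18a1 and Col15a1 are multiplexins of the basement membrane zone, and Col18a1 yields the fragment endostatin. Col18a1 averaged 523682 ± 31267 in mutants and 441013 ± 123749 in wild types (SD, n = 3 each), and its highest value, 581615, was that of wild type 330. Col15a1 was nearly level, with a log2 difference of 0.05 (SE 0.16). Col26a1 (0.35, SE 0.21) and the transmembrane collagens Col23a1 (0.22, SE 0.18) and Col25a1 (0.36, SE 0.25) were above 0.

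**Figure D2:**
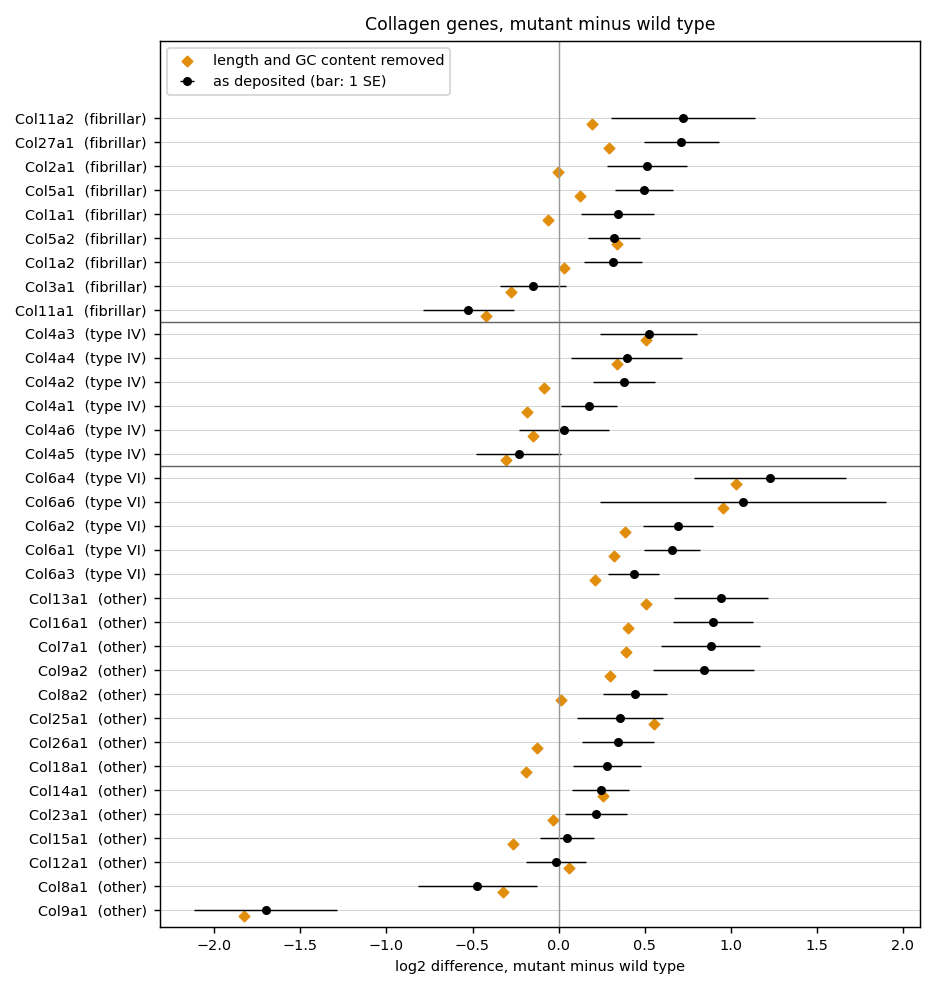
Each row is a collagen gene, the black point is its log2 difference, mutant minus wild type, with a bar of 1 SE from limma, and the orange diamond is the difference after the trend on transcript length and GC content was removed. Of the black points 28 lie above 0 and of the diamonds 20, and the 5 type VI chains and Col9a1 lie on the same side of 0 by either measure.

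Ratios between partner chains, taken per kb of transcript within a library, separated the genotypes for 2 of 10 pairs, both with mutants lower. Single genes were apart with mutants lower in 8.42% of cases and with mutants higher in 11.1%. No such share was computed for ratios of other genes, so nothing is read from the count of pairs. Besides Col9a1 over Col9a2, the ratio of Col6a3 to Col6a1 was 0.259, 0.251 and 0.302 in mutants 328, 336 and 342, against 0.307, 0.309 and 0.329 in wild types 330, 331 and 337. Mutant 342 thus lay only just below wild type 330 for Col6a3 over Col6a1. Col1a1 over Col1a2 averaged 0.743 ± 0.0930 in mutants and 0.733 ± 0.132 in wild types (SD, n = 3 each). Col4a1 over Col4a2 averaged 1.74 ± 0.0904 in mutants and 2.01 ± 0.192 in wild types, with wild type 330 (1.79) inside the mutant range. Col11a1 over Col11a2 was 0.991, 1.54 and 1.39 in the mutants and 1.13, 4.21 and 5.99 in the wild types, where wild type 330 again lay with the mutants and wild types 331 and 337 far above. Col11a1 has a GC content of 48.0% and Col11a2 of 62.9%.

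**Figure D3:**
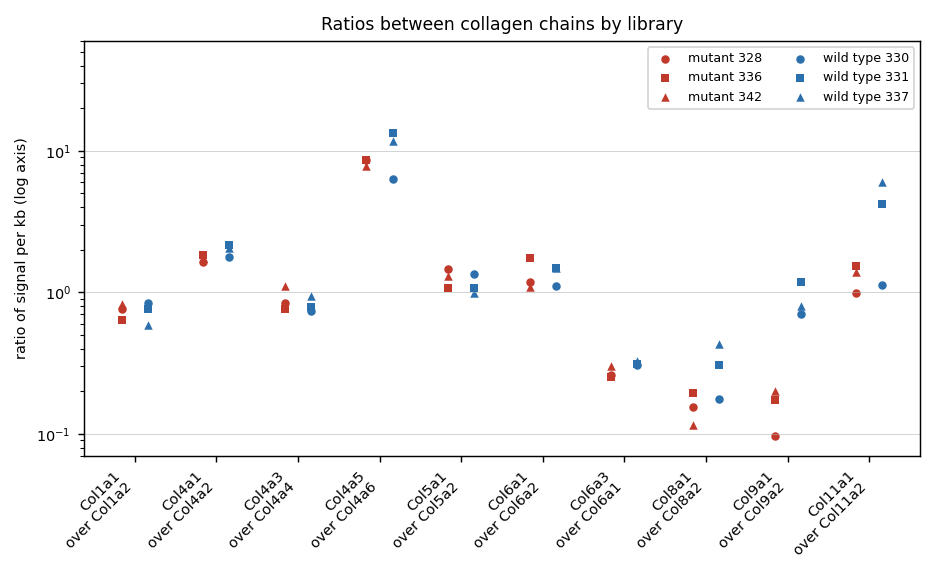
Ratio of the signal per kb of 2 partner chains in each library, on a log axis, with mutants in red left of wild types in blue. Only Col6a3 over Col6a1 and Col9a1 over Col9a2 have all mutant points below all wild type points.

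The differences of collagens went with the GC content of their transcripts. All 17 collagens with a GC content at or above their median of 55.9% had a log2 difference above 0, with a median of 0.51, against 11 of the 17 below it, with a median of 0.24. The same held for genes at large. Of the 2316 genes of the table at or above 55.9% GC, 2135 had a log2 difference above 0 and the median was 0.40, whereas 3887 of the 9182 genes below it did and the median was -0.07. Pearson's r between log2 difference and GC content was 0.47 over the 34 collagens and 0.62 over 11498 genes (Spearman's rho 0.53 and 0.69). These are correlations across genes that share the same 6 libraries, so no p is given.

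**Figure D4:**
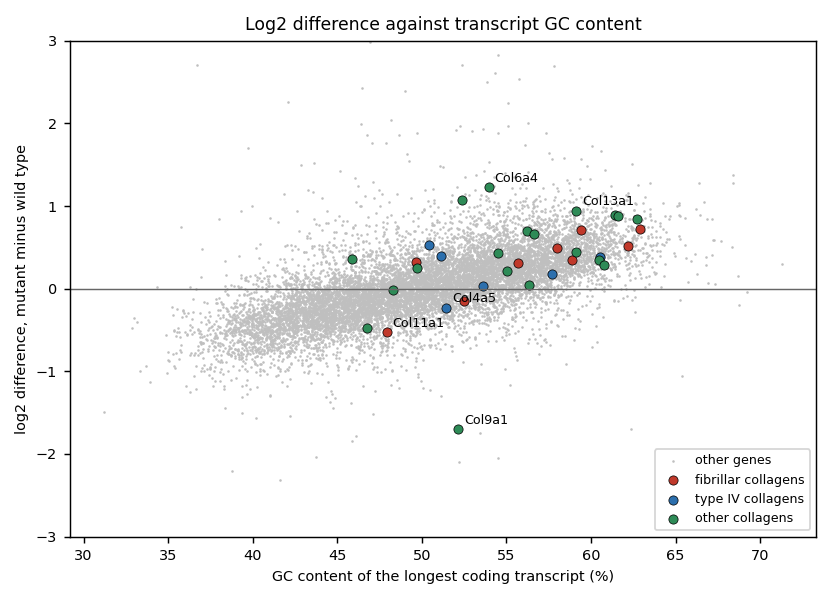
GC content of the longest coding transcript in percent against the log2 difference, mutant minus wild type, with collagens coloured by class and the other genes in grey, and with 4 genes outside the plotted range. Most collagens lie within the grey band that rises with GC content, and Col9a1 lies far below it.

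Wild type 330 differed from the other wild types along the same measure. It was the highest of the 3 wild types for 18 of 34 collagens, against 40.8% of all genes. Over the collagens the log2 distance of wild type 330 from the mean of wild types 331 and 337 correlated with GC content at r = 0.71, and over all genes at 0.68. Within the class of higher depth, mutants 328 and 342 against wild type 330, r between log2 difference and GC content was 0.12 over the collagens and 0.20 over all genes. Within the lower class, mutant 336 against wild types 331 and 337, it was 0.45 and 0.59.

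Within the depth classes most collagens were higher in the mutants. In the lower class 28 of 34 were higher in the mutant (all genes 52.6%), and in the higher class 26 of 34 (all genes 48.5%). Higher in both classes were 23 collagens and 3838 of all 11578 genes. The median log2 difference was 0.50 in the lower and 0.28 in the higher class (all genes 0.036 and -0.0055). It was 0.32 and 0.33 for the fibrillar, 0.50 and 0.09 for the type IV and 0.86 and 0.44 for the type VI chains. All 5 type VI chains were higher in the mutants in both classes. For Col9a1 the difference was -1.70 in the lower and -1.69 in the higher class.

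With the trend of each library on transcript length and GC content removed, the median was 0.09 over the collagens and 0.02 over all genes. Above 0 were 20 of the 34 collagens and 6031 of the 11498 genes with a known GC content. The median was 0.03 for the fibrillar, -0.12 for the type IV and 0.38 for the type VI chains, with all 5 of the last above 0. In that fit 10 collagens turned direction, namely Col1a1 (-0.06), Col2a1 (-0.0018), Col4a1 (-0.18), Col4a2 (-0.08), Col4a6 (-0.15), Col12a1 (0.06), Col15a1 (-0.26), Col18a1 (-0.19), Col23a1 (-0.03) and Col26a1 (-0.13). Of the 12 genes apart with mutants higher, Col8a2 was at 0.02, Col5a1 at 0.13, Col6a3 at 0.21, Col27a1 at 0.29, Col9a2 at 0.30, Col6a1 at 0.32, Col5a2 at 0.34, Col6a2 at 0.38, Col7a1 at 0.39, Col16a1 at 0.40, Col13a1 at 0.51 and Col6a4 at 1.03. All but Col5a2 were lower than without the removal. Col9a1 was at -1.83. The part of GC content in the differences was not tested beyond these values.

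Genes that make, process and degrade collagen were taken from a list of 75, of which 63 were in the table. By limma over all genes 0 of the 63 passed an adjusted p of 0.05, where 0.285% of all genes did, and at an unadjusted p under 0.05 there were 19 higher and 2 lower, P4ha1 and Glt25d2, a collagen galactosyltransferase (-0.88 on the log2 scale), against 10.5% and 8.51% of all genes. Glt25d2 was named after its values were seen. Their median log2 difference was 0.17, and 44 were above 0.

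Among 18 genes of chain modification and folding the median was 0.21. Serpinh1, the collagen chaperone HSP47, had the highest signal per kb, and averaged 851251 ± 6710 in mutants and 727231 ± 191910 in wild types (SD, n = 3 each; log2 difference 0.26, SE 0.19). P4ha1, a catalytic subunit of prolyl hydroxylase, named after its values were seen, had 44410, 48158 and 53721 in mutants 328, 336 and 342, against 64053, 74998 and 66558 in wild types 330, 331 and 337 (-0.49, SE 0.17, limma adjusted p = 0.233). It stood apart in the direction opposite to most collagens. The 6 genes of secretion had a median of -0.03, and Sec13, the most abundant per kb, averaged 68744 ± 14276 in mutants and 68799 ± 2622 in wild types.

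Among 10 genes of processing and cross-linking 9 were above 0, with a median of 0.52, and 5 had groups apart with mutants higher, where 52.4% of all genes were above 0 and 11.1% were apart in that direction. Pcolce, an enhancer of procollagen cleavage and the most abundant per kb, showed 0.16 (SE 0.18). Named after their values were seen, Adamts2, which removes the amino-terminal propeptide, showed 0.97 (SE 0.24), and Lox, the founding lysyl oxidase, had 68721, 72137 and 70887 in mutants 328, 336 and 342, against 43949, 57665 and 46663 in wild types 330, 331 and 337 (0.52, SE 0.17). Lox has a GC content of 43.9%. With length and GC content removed, Lox (0.80, limma adjusted p = 0.0300) and the collagen-degrading surface protease Fap (1.51, adjusted p = 0.0215) passed, the only genes of the list that did, where 0.417% of all genes passed.

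Fap had 9233, 9258 and 11203 in mutants 328, 336 and 342, against 2908, 6086 and 5050 in wild types 330, 331 and 337, so the groups were apart before that step as well (log2 difference 1.14, SE 0.33, limma adjusted p = 0.231). Of the 10 degradation genes 9 were above 0, with a median of 0.46, and 6 had groups apart with mutants higher. Among all genes 52.4% were above 0 and 11.1% were apart in that direction. Timp3, a metalloprotease inhibitor bound to matrix and the most abundant per kb, was the one below 0, at -0.13 (SE 0.18). Of 7 receptors 4 were above 0, and Itgb1, the beta chain of the collagen-binding integrins, showed -0.28 (SE 0.20). Among 12 fibril partners the median was 0.12, and Sparc, which binds collagen and was the most abundant per kb, showed 0.06 (SE 0.16).

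Stromal and mural cells make much of the interstitial collagen, and endothelium and epithelia make type IV chains. The 10 stromal markers summed to between 1178407 and 1336983 in mutants and between 1090821 and 1204287 in wild types, with 9 of 10 log2 differences above 0 and a median of 0.16. Among them Smoc2, a matrix protein of the stroma, was the only one past the threshold and rose in the mutants (1.14 on the log2 scale, SE 0.17, adjusted p = 0.0209 by limma). The 8 mural and smooth muscle markers summed to between 523885 and 593198 in mutants and between 558542 and 606775 in wild types. They were mixed, with 5 of 8 log2 differences above 0, from -0.75 for Rgs5 to 0.64 for Ren1. The 10 endothelial markers summed to between 809741 and 839309 in mutants and between 700964 and 782348 in wild types, with a median of 0.05. Macrophage markers, 6 of 9 listed symbols in the table, summed to between 88836 and 89549 in mutants and between 49307 and 56386 in wild types, with a median of 0.73. The summed endothelial and macrophage markers were apart between genotypes, higher in mutants, and the stromal and mural sums overlapped. How often sums of other genes are apart was not computed, so nothing is read from this. Single endothelial markers were mixed, with 7 of 10 log2 differences above 0, from -0.55 for Emcn to 0.88 for Egfl7. Among them Pecam1 was at 0.02 and Cdh5 at 0.07. No marker in the table was at 0 in any library, and the part of cell composition in the result was not tested.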

How the data were processed

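Poly(A) RNA was sequenced from 3 mutant and 3 wild type kidneys. The deposited signal is a whole number for each gene and library, scaled by the authors so that library totals are almost the same. The authors' deposited log2 values, ratios (folds) and p-values supply no value here. Per the submitters' processing notes bedtools was used with build mm10; the sources used here give no aligner, annotation, filter or scaling method. Depth is thus known only as the spacing class.

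Genes were fitted with limma 3.58.1 in R 4.3.3 on log2(signal + 1), with a variance trend and Benjamini-Hochberg adjustment over 11578 genes at 0.05; a filter of 1 in at least 3 libraries removed 0 genes. The fit was also run on simulated data with noise drawn independently for each gene and library. Those data lack the shifts with GC content that many genes share here, so that run does not cover them. Length and GC content (longest coding transcript, GENCODE M21, GRCm38) were available for 11498 genes, all 34 collagens included. Promoters are from RefSeq (GRCm38.p6), where 27 collagens had a window.

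The members and lists were chosen with earlier results of these data known. Named genes are all members, and of each pathway list the genes past the threshold or the most abundant per kb; P4ha1, Glt25d2, Adamts2, Lox and Fap fall outside that rule and were named after their values were seen.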

Additional observations from a re-analysis of the deposited data

How the results depend on the processing

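No paired analysis was possible because the genotypes share no library number. Leaving out 1 library, the calls over all genes ran between 2 and 3095, those among collagens between 0 and 17 and those among pathway genes between 0 and 23, each highest without wild type 330. The wild types left in that fit are both of the lower depth class. The medians ran between 0.33 and 0.54 (fibrillar), 0.15 and 0.34 (type IV), 0.25 and 0.51 (other) and 0.57 and 0.89 (type VI). The fibrillar median was highest without mutant 336, the type IV median lowest without that library (0.18 without mutant 328), the other median lowest without wild type 337 and the type VI median highest without wild type 330. Over all genes the calls were 2 without mutant 328, 5 without mutant 342, 12 without mutant 336, 3 without wild type 331 and 17 without wild type 337, against 33 with every library. With length and GC content removed, the medians were 0.033 (fibrillar), -0.12 (type IV), 0.26 (other) and 0.38 (type VI), and with depth class added, a fit chosen after the data were seen, 0.0051, -0.097, 0.27 and 0.39. Both fits called 2 pathway genes, and dropping the variance trend called 1 collagen. The cause was not tested. Other settings (mean signal of at least 10000, pseudocount of 1000, quantile normalization, depth class as a covariate) moved no median beyond the spread between libraries. Dropping the filter, which removed 0 genes, or the variance trend could not change a log2 difference. A common median shifts all genes by the same small amount. Those settings are therefore no check on the medians. Over single collagens and settings, 41 values moved by more than that spread and 461 did not, the settings that could move none included. Apart from Col9a1 (pseudocount of 1000 and quantile normalization), all that moved did so with length and GC content removed, with or without depth class. A value within the spread could still turn direction. Directions turned for 10 collagens with length and GC content removed, and without 1 library for Col15a1 (mutant 328), Col4a6 (mutant 336 or wild type 331), Col12a1 (mutant 342 or wild type 331) and Col6a6 (wild type 337). Depth is known only as a class, so no counting interval can be given.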
